A study of Homo sapiens with 12 samples.

Results

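The genes described here encode 10 proteins of eicosanoid synthesis and breakdown, *ALOX5*, *ALOX5AP*, *LTC4S*, *LTA4H*, *PTGS1*, *PTGS2*, *HPGDS*, *TBXAS1*, *PLA2G4A* and *HPGD*, chosen by symbol from the 58381 genes in the tables. All 10 were matched once, and 8 of them passed the filter on low counts that left 15944 genes for testing. RNA was sequenced from sublines of HMC-1, a human mast cell line that was derived from a patient with mast cell leukemia. HMC-1.1 cells carry the V560G variant of the receptor tyrosine kinase KIT, HMC-1.2 cells carry V560G and D816V, and HMC-1.3 cells carry D816V alone. HMC-1.3 was made from HMC-1.2 by reversing V560G with CRISPR/Cas9, and clone 1 and clone 2 are each the progeny of a single cell that went through puromycin selection and limiting dilution. Each of the 4 groups had 3 libraries, from wells plated in triplicate, and no stimulus is described for them. Clone 1 and clone 2 are thus 1 clone each of the edited line, and differences between them and HMC-1.2 cannot be told apart from differences between single cells of HMC-1.2. The KIT genotype of the libraries was not examined here.

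Eicosanoids are lipid mediators that mast cells make on demand after activation. A cytosolic phospholipase releases arachidonic acid from membrane phospholipids, and the acid then enters the leukotriene branch through 5-lipoxygenase and its activating protein or the prostanoid branch through the cyclooxygenases. Mast cells are known for cysteinyl leukotrienes, which begin with leukotriene C4, and for prostaglandin D2, which is made by the hematopoietic prostaglandin D synthase.

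The libraries summed to between 29225900 and 43181402 expected counts, and no library was set aside. The values below are FPKM (fragments scaled by transcript length and library size) as the level of a gene and log2 fold changes of counts from edgeR's quasi-likelihood test as the difference between groups. A gene was called at a Benjamini-Hochberg adjusted p under 0.05 and a fold over 1.5. Since wells of 1 culture may be technical replicates, the p-values measure the spread between these libraries. In bulk RNA, fewer cells expressing a gene and less RNA per cell cannot be told apart. Of 10 mast cell markers, 9 were tested, and *CMA1*, with at most 4 counts in any library, was not. The summed level of the 10 was between 4600 and 4640 CPM (counts scaled to a common library size) for HMC-1.2 and 4090 to 4180 for HMC-1.1. It was 4240 to 4360 in clone 1 and 4080 to 4160 in clone 2. *MS4A2*, *TPSAB1* and *TPSB2* were called lower and *FCER1G* and *CPA3* higher in each comparison with HMC-1.2. *KIT* and *HDC*, not called, made up most of the sum, with means of 1650 and 1800 CPM in HMC-1.2. *TPSAB1* had a mean of 565 CPM in HMC-1.2, 41.1 in clone 1, 27.0 in clone 2 and 34.4 for HMC-1.1. *FCER1G*, at 12 to 32 counts in HMC-1.2, was 54.2-fold higher in clone 1, 5.84-fold in clone 2 and 53.3-fold in HMC-1.1. *FCER1A*, at most 46 counts in any library, was called lower in clone 1 and HMC-1.1 and not called in clone 2. *MS4A2*, with 18 to 23 counts in HMC-1.2 and 3 to 10 elsewhere, passed the filter on low counts only through HMC-1.2, so that its call supports nothing.

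The bases upstream of the start sites of 4 members are given here because these genes carried the largest difference of the leukotriene branch (*ALOX5AP*, *LTC4S*), the difference between the clones in the prostaglandin D branch (*HPGDS*) and the rise in the release step (*PLA2G4A*). They are the 250 bases before the RefSeq start site in GRCh38.p14, written 5′ to 3′ on the strand of the gene, and capitals mark the core of the motif bound by GATA factors, GATAA on either strand. The windows are chr13:30713235-30713484 (plus strand), chr5:179793736-179793985 (plus strand), chr4:94342837-94343086 (minus strand) and chr1:186828699-186828948 (plus strand).
ALOX5AP: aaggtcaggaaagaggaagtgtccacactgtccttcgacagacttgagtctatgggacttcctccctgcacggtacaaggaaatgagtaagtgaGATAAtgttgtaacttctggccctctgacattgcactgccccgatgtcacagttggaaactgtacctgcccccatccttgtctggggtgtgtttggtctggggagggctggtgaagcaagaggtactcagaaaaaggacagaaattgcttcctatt
LTC4S: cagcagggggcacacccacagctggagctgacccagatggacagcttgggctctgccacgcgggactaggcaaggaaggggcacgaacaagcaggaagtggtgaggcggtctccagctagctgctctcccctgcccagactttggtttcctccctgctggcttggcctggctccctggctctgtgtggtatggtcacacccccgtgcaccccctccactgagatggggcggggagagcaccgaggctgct
HPGDS: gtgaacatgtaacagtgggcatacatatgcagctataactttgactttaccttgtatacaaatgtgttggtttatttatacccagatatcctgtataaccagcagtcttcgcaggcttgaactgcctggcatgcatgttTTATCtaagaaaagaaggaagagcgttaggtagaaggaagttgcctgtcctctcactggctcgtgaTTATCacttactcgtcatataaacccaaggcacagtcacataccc
PLA2G4A: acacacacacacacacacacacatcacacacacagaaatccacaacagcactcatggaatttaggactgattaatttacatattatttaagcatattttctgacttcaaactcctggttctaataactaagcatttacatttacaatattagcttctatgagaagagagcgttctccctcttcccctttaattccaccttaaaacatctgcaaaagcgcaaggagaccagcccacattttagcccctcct
The GATA core stood at position -156 from the start site in *ALOX5AP* and at -111 and -45 in *HPGDS*, and these letters were not in the windows of *LTC4S* and *PLA2G4A*. Among all 35116 promoter windows of this length, 20.4% held it. The core bound by ETS factors (GAGGAA on either strand) matched at -238 and -192 in *ALOX5AP* and at -104 in *LTC4S*, and 23.6% of all windows held it. A match to the SP1 motif (GGGCGG on either strand) lay at -25 in *LTC4S*, and 42.6% of all windows held one. The AP-1 motif (TGANTCA) and the STAT motif (TTCNNNGAA) had no match in these 4 windows and were each found in 6.57% of all windows. Such matches describe letters in the sequence and were not measured as binding sites.

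**Figure D1:**
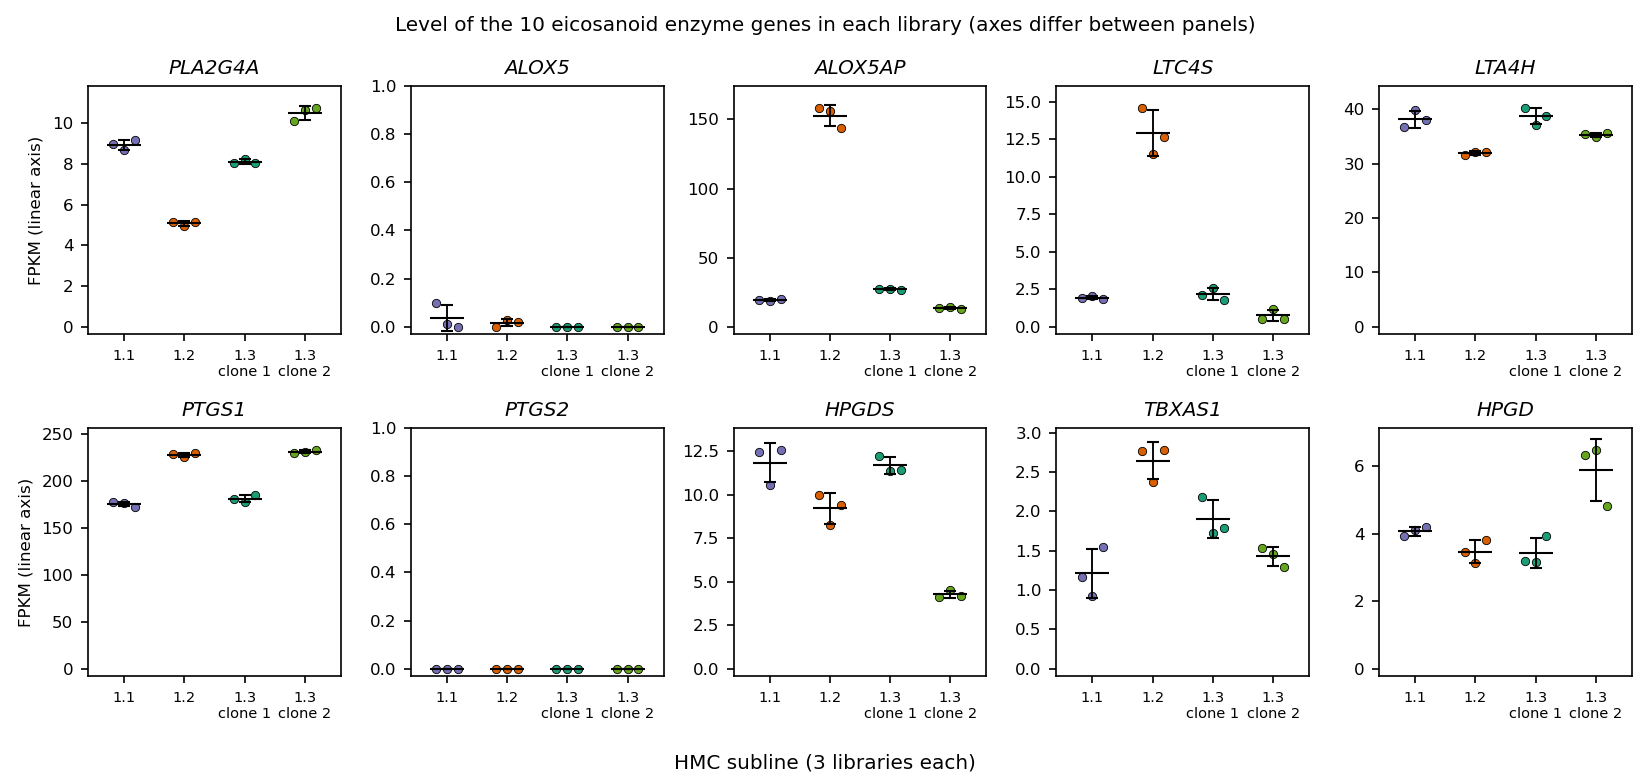
Level in FPKM (linear axes that differ between panels) of the 10 genes in each library of the 4 groups, where points are libraries and bars are the mean ± SD of 3. *ALOX5AP* and *LTC4S* were high in HMC-1.2 alone, *PLA2G4A* was lowest there, *HPGDS* was low in clone 2, and *ALOX5* and *PTGS2* lay at or near 0 in every library.

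The first comparison asked how cells with D816V alone differed from the parental cells with both KIT variants. In clone 1 against HMC-1.2, 4 of the 8 members tested were called, 3 lower and 1 higher, where 20.0% of all genes tested were called, 8.18% lower and 11.8% higher. In clone 2 against HMC-1.2, 6 members were called, 4 lower and 2 higher, beside 16.5% of all genes, 8.51% lower and 7.98% higher. In HMC-1.1, the subline with V560G alone, against HMC-1.2, 4 members were called, 3 lower and 1 higher, beside 17.6% of all genes, 7.52% lower and 10.1% higher. *ALOX5AP*, *LTC4S* and *TBXAS1* were lower and *PLA2G4A* was higher in each of these comparisons, which share the HMC-1.2 libraries. The median log2 fold change of the 8 members was 0.07 for clone 1, -0.55 for clone 2 and 0.02 for HMC-1.1, beside medians of 0.01, 0.00 and 0.01 over all genes tested.

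**Figure D2:**
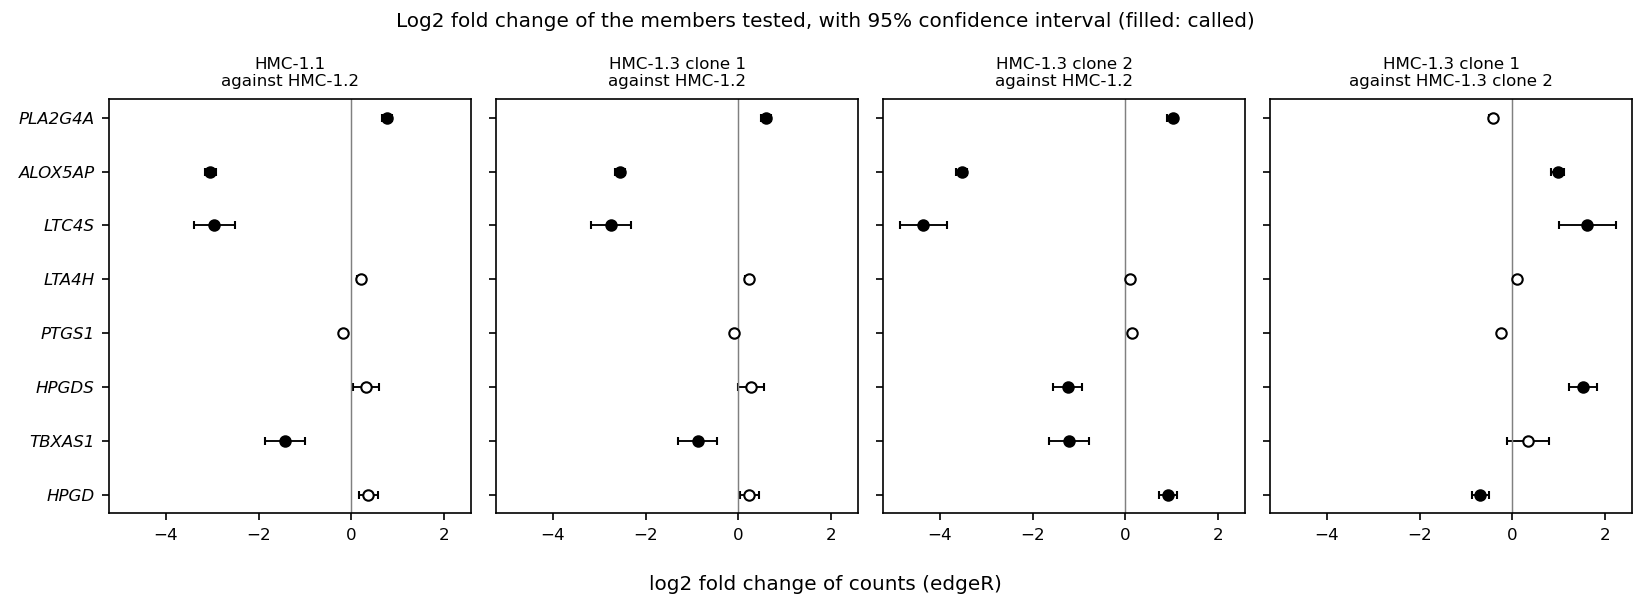
Log2 fold change of counts (x axis) for the 8 members tested, with 95% confidence intervals from edgeR, where HMC-1.1 and each clone are set against HMC-1.2 and clone 1 against clone 2. Filled points are called genes. *ALOX5AP* and *LTC4S* lie between -4.36 and -2.55 in the 3 comparisons with HMC-1.2, and *HPGDS* differs between the clones by 1.52.

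*PLA2G4A* encodes the cytosolic phospholipase A2 that releases arachidonic acid, and its level was lower in HMC-1.2 than in the other groups. It was 5.15, 4.94 and 5.15 FPKM in the HMC-1.2 libraries, 8.06, 8.24 and 8.02 in clone 1, 10.1, 10.7 and 10.8 in clone 2, and 8.99, 8.67 and 9.16 for HMC-1.1. No 2 groups overlapped, and the order was clone 2, HMC-1.1, clone 1 and HMC-1.2. The log2 fold change against HMC-1.2 was 0.60 (SE 0.05, edgeR adjusted p = 2e-08) in clone 1, which is 1.52-fold, and 0.58, under the 1.5-fold threshold, without replicate 2 of HMC-1.2 or without replicate 2 of clone 1. The call in clone 1 was also lost when the test was made against a 1.5-fold change itself (glmTreat, adjusted p = 0.82) and with limma on log2(FPKM + 1), at 0.58. In clone 2 *PLA2G4A* was 2.02-fold higher (log2 1.02, SE 0.05, edgeR adjusted p = 1.6e-11), and in HMC-1.1 1.71-fold higher (log2 0.77, SE 0.05, edgeR adjusted p = 7.8e-10). The clones differed from each other by 1.33-fold, with clone 2 higher (edgeR adjusted p = 1.2e-06), and clone 1 lay 1.13-fold below HMC-1.1 (edgeR adjusted p = 0.017), both under the fold threshold.

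In the leukotriene branch, *ALOX5*, which encodes 5-lipoxygenase, was not detectable at a level that could be tested. It had 1, 1 and 0 counts in HMC-1.1, 0, 2 and 1 in HMC-1.2 and 0 in all 6 libraries of the clones. A count of 0 allows up to 3 counts per library, which is 0.0695 to 0.103 CPM at these depths, so no fold was computed. These limits cover counting error only. *ALOX5AP*, whose product FLAP presents arachidonic acid to 5-lipoxygenase, was by contrast the member with the highest level after *PTGS1* in HMC-1.2. It had 158, 156 and 144 FPKM there, 27.4, 27.7 and 26.5 in clone 1, 13.9, 14.5 and 12.8 in clone 2, and 19.5, 19.0 and 20.0 for HMC-1.1. No library of another group came near those of HMC-1.2, and the other groups did not overlap either.

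*ALOX5AP* fell 5.87-fold in clone 1 against HMC-1.2 (log2 -2.55, SE 0.05, edgeR adjusted p = 2.3e-16) and 11.6-fold in clone 2 (log2 -3.53, SE 0.06, edgeR adjusted p = 8.8e-18). In HMC-1.1 it was 8.21-fold lower than in HMC-1.2 (log2 -3.04, SE 0.06, edgeR adjusted p = 4.5e-17). Among the groups without both variants the order was clone 1, HMC-1.1 and clone 2. Clone 1 lay 1.40-fold above HMC-1.1 (95% interval of the log2 difference 0.35 to 0.61, edgeR adjusted p = 5.6e-05) and clone 2 1.41-fold below it (-0.64 to -0.35, edgeR adjusted p = 1.9e-05), and neither passed the fold threshold. The clones differed from each other by 1.97-fold (log2 0.98, SE 0.06, edgeR adjusted p = 1.9e-09), which was called.

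*LTC4S* encodes leukotriene C4 synthase, which joins glutathione to leukotriene A4, and it followed the same order as *ALOX5AP* at a lower level. HMC-1.2 libraries had 14.6, 11.5 and 12.6 FPKM, clone 1 libraries 2.09, 2.61 and 1.80, clone 2 libraries 0.55, 1.2 and 0.54, and HMC-1.1 libraries 1.89, 2.05 and 1.88. These levels rest on 163 to 215 counts in HMC-1.2, 24 to 41 in clone 1, 25 to 32 in HMC-1.1 and only 7 to 16 in clone 2. HMC-1.2 stood above every other library, clone 2 below every other library, and clone 1 and HMC-1.1 overlapped. *LTC4S* fell 6.68-fold in clone 1 (log2 -2.74, SE 0.20, edgeR adjusted p = 4.3e-09) and 20.6-fold in clone 2 (log2 -4.36, SE 0.24, edgeR adjusted p = 9.3e-11) against HMC-1.2. It was 7.80-fold lower in HMC-1.1 (log2 -2.96, SE 0.21, edgeR adjusted p = 2.4e-09). With limma on log2(FPKM + 1), a scale on which a fold of a low gene is understated, the changes were -2.14 in clone 1, -3.00 in clone 2 and -2.24 for HMC-1.1, all still called.

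Between the clones, *LTC4S* was 3.08-fold higher in clone 1 (log2 1.62, SE 0.29, edgeR adjusted p = 0.00017), or 0.86 on the log2(FPKM + 1) scale. Clone 2 lay 2.63-fold below HMC-1.1 (log2 -1.40, SE 0.29, edgeR adjusted p = 0.0013), a call that was lost with glmTreat. Clone 1 and HMC-1.1 differed by 0.22 on the log2 scale with a 95% interval of -0.30 to 0.74 (edgeR adjusted p = 0.58).

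Some markers of other cells were, like *ALOX5AP* and *LTC4S*, highest in HMC-1.2. The summed level of 5 eosinophil and basophil markers was 332 to 345 CPM for HMC-1.2, 63.7 to 70.1 in clone 1, 30.5 to 34.8 in clone 2 and 60.5 to 69.6 for HMC-1.1. *CLC* and *PRG2* were called lower in each comparison with HMC-1.2. *EPX* and *RNASE2* passed the filter on low counts only through HMC-1.2, where they had 46 to 67 and 13 to 25 counts beside at most 15 and 8 in the other groups, and are given as a description. *CCR3*, the eotaxin receptor, had at most 1 count in any library. *PRG2*, which encodes the major basic protein, fell by 2.64 on the log2 scale in clone 1 and by 4.41 in clone 2 and differed between the clones by 1.78, and *CLC*, the Charcot-Leyden crystal protein, fell by 1.76 and 1.92. The lower sum in clone 2 than in clone 1 was thus mostly *PRG2* (means of 12.5 and 43.7 CPM), while *CLC* differed between the clones by 0.16, *EPX* by 0.15 and *RNASE2* by -0.20, none of them called. The summed monocyte markers were 22.1 to 26.2 CPM in HMC-1.2 and between 7.96 and 10.3 in the other groups, and this difference lay in *CD68*, with a mean of 20.8 CPM in HMC-1.2 and 5.64 to 7.10 elsewhere, called lower in the 3 comparisons. *LYZ* was not called (-0.10, -0.40 and 0.05), *CD14* and *CSF1R* had at most 5 and 8 counts in any library, and *FCGR3A* was at 0 throughout. Of the neutrophil markers, 4 of 5 had at most 3 counts in every library, as had 4 of 7 lymphocyte markers, whose sum was 2.17 to 4.82 CPM. The part of these markers in the *ALOX5AP* and *LTC4S* results was not tested.

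**Figure D3:**
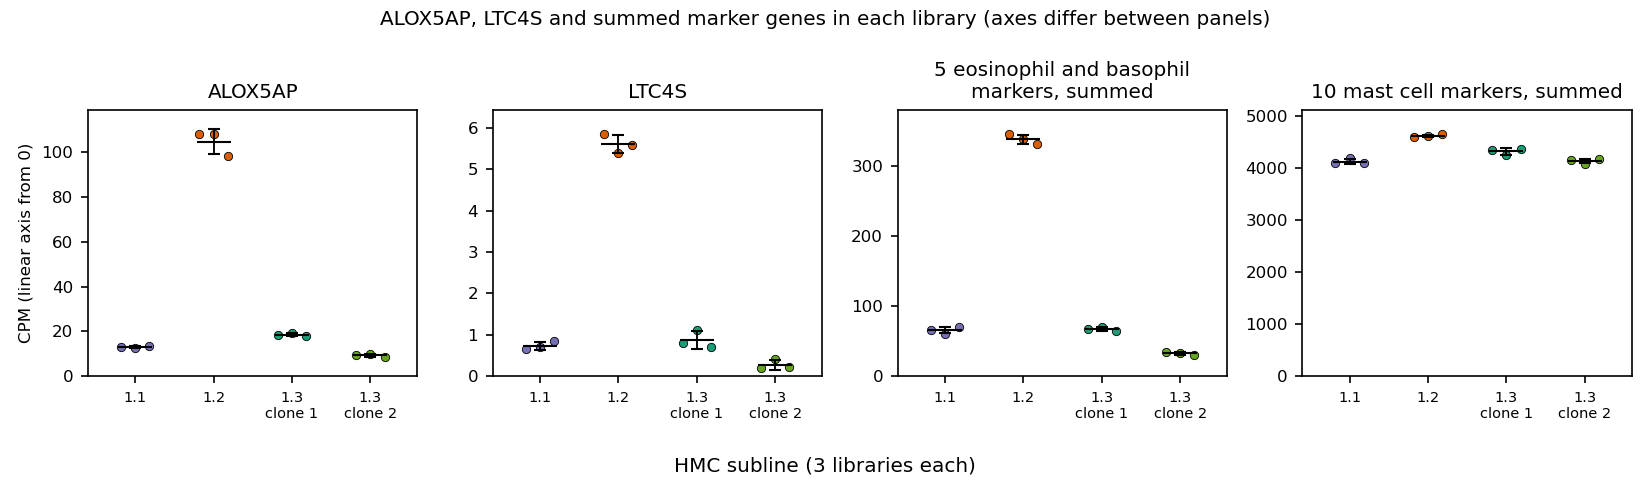
Level in CPM (linear axes from 0 that differ between panels) of *ALOX5AP*, *LTC4S*, the sum of 5 eosinophil and basophil markers and the sum of 10 mast cell markers in each library, where points are libraries and bars are the mean ± SD of 3. The eosinophil and basophil sum is 332 to 345 CPM in HMC-1.2 and at most 70.1 elsewhere. The mast cell sum, mostly *KIT* and *HDC*, stays between 4080 and 4640 CPM and does not show the changes of single markers such as *TPSAB1*.

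*LTC4S* lies on chromosome 5 at 179793980 to 179796647 (plus strand, GRCh38), near the end of the long arm, and the nearest genes tested on both sides of it were also lower. *MAML1*, a coactivator of Notch that ends 16.7 kb before it, was called in each comparison with HMC-1.2, at -1.14 in clone 1, -1.02 in clone 2 and -1.05 for HMC-1.1 on the log2 scale. *MGAT4B*, a glycosyltransferase gene 0.95 kb after it, was called at -0.82, -0.71 and -0.80. Neither neighbor differed between the clones by as much as *LTC4S* did, at -0.11 each with edgeR adjusted p = 0.082. *ALOX5AP* on chromosome 13 (30713478 to 30764426, plus strand) had as neighbors *USPL1*, at 0.11, 0.00 and 0.09 and not called, and *HSPH1*, 371 kb away, called in clone 1 (-0.87) and not in the other comparisons with HMC-1.2.

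*LTA4H* encodes leukotriene A4 hydrolase, which makes leukotriene B4, and no difference between groups reached 1.5-fold. HMC-1.2 libraries had 31.6, 32.1 and 32.2 FPKM, clone 1 libraries 40.2, 37.2 and 38.8, clone 2 libraries 35.3, 35.0 and 35.6, and HMC-1.1 libraries 36.7, 39.8 and 37.9. The 3 other groups lay above HMC-1.2 in every library, but by less than the fold threshold, at 1.17-fold in clone 1 (edgeR adjusted p = 4.5e-05), 1.08-fold in clone 2 (edgeR adjusted p = 0.016) and 1.16-fold in HMC-1.1 (edgeR adjusted p = 0.00012). Its neighbor *HAL*, 4.39 kb away, had log2 fold changes of -2.44 in clone 1, -1.3 in clone 2 and -2.87 for HMC-1.1, but it passed the filter on low counts only through HMC-1.2 (10 to 16 counts there and 1 to 9 elsewhere). *ELK3*, 151 kb away on the other side, was not called (-0.11, 0.05 and -0.19).

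Of the cyclooxygenases that open the prostanoid branch, *PTGS2*, the inducible enzyme, had 0 counts in all 12 libraries, which allows up to 3 counts per library. *PTGS1*, the constitutive cyclooxygenase, had the highest level of all members in every group and ranked between 404 and 600 among the 58381 genes by FPKM. Its level was 229, 225 and 229 FPKM in HMC-1.2, 180, 178 and 185 in clone 1, 230, 231 and 233 in clone 2, and 177, 176 and 173 for HMC-1.1. The parental and clone 2 libraries were thus high and those of clone 1 and HMC-1.1 low, and no 2 groups overlapped, although HMC-1.2 and clone 2 came close. No difference reached 1.5-fold. The log2 fold change of counts against HMC-1.2 was -0.09 in clone 1 (edgeR adjusted p = 0.0046), 0.14 in clone 2 (edgeR adjusted p = 0.00023) and -0.17 for HMC-1.1 (edgeR adjusted p = 2.3e-05). Counts and FPKM did not give the same size here, since limma on log2(FPKM + 1) put the difference of clone 1 at -0.33 and that of clone 2 at 0.02. FPKM from RSEM depends on the mix of isoforms assigned to a gene, and that mix was not examined. In Gencode 44 an unnamed gene overlaps *PTGS1* on the same strand, so its counts are uncertain to that extent. Its neighbors *MRRF* (39.2 kb, -0.10, -0.07 and -0.06) and *PDCL* (403 kb, -0.28, -0.05 and -0.15) were not called in clone 1, clone 2 or HMC-1.1 against the parental cells.

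*HPGDS*, the hematopoietic prostaglandin D synthase, set clone 2 apart. Clone 2 libraries had 4.12, 4.52 and 4.21 FPKM, HMC-1.2 libraries 10.0, 8.26 and 9.40, clone 1 libraries 12.2, 11.4 and 11.5, and HMC-1.1 libraries 12.4, 10.6 and 12.6. All clone 2 libraries lay below every other library, and clone 1 and HMC-1.1 overlapped. *HPGDS* fell 2.36-fold in clone 2 against HMC-1.2 (log2 -1.24, SE 0.15, edgeR adjusted p = 1.8e-06). Clone 1 and HMC-1.1 lay above HMC-1.2 in every library by FPKM but not by CPM. Their log2 fold changes of counts against HMC-1.2 were 0.28 (SE 0.13, edgeR adjusted p = 0.078) and 0.31 (SE 0.13, edgeR adjusted p = 0.055), which did not pass the test. The difference between the clones was itself 2.86-fold (log2 1.52, SE 0.14, edgeR adjusted p = 1.5e-07), and clone 2 was 2.93-fold below HMC-1.1 (log2 -1.55, SE 0.14, edgeR adjusted p = 2e-07). Clone 1 and HMC-1.1 differed by -0.03 (95% interval -0.30 to 0.24).

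*TBXAS1* encodes thromboxane A synthase and had the lowest level of the members tested in HMC-1.2. It had 2.77, 2.37 and 2.78 FPKM in HMC-1.2, 2.18, 1.73 and 1.79 in clone 1, 1.53, 1.46 and 1.29 in clone 2, and 1.16, 0.93 and 1.55 for HMC-1.1. HMC-1.2 was above every other library, and clone 2 and HMC-1.1 overlapped. The log2 fold change of counts against HMC-1.2 was -0.88 in clone 1 (SE 0.20, edgeR adjusted p = 0.0012), -1.22 in clone 2 (SE 0.20, edgeR adjusted p = 9.4e-05) and -1.43 for HMC-1.1 (SE 0.21, edgeR adjusted p = 1.9e-05). The call in clone 1 was lost with glmTreat and on the FPKM scales, where the change was -0.33 with a pseudocount of 1 and -0.46 with 0.1, and the call in clone 2 was lost at -0.58 with a pseudocount of 1. Of its neighbors, *LUC7L2* (354 kb) stood at -0.26, 0.09 and -0.14 and *PARP12* (3.42 kb) at 0.11, 0.37 and 0.11, without a call. *HIPK2* overlaps *TBXAS1* on the opposite strand. The kit was stranded, but whether the counting used strand is not given in the sources used here. Platelets are the known site of thromboxane synthesis, and the platelet markers *GP9* and *PF4* were at 0 in all libraries and *PPBP* had at most 3 counts, while *ITGA2B*, which makes up the platelet sum, was at 1350 to 1380 CPM in HMC-1.2 and 1850 to 2040 in the other groups.

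*HPGD* encodes the prostaglandin dehydrogenase that inactivates prostaglandins, and it was highest in clone 2. Clone 2 libraries had 6.33, 6.48 and 4.83 FPKM, HMC-1.2 libraries 3.47, 3.13 and 3.80, clone 1 libraries 3.19, 3.17 and 3.94, and HMC-1.1 libraries 3.93, 4.11 and 4.19. Clone 2 lay above every other library, and clone 1 overlapped with HMC-1.2 and HMC-1.1. *HPGD* rose 1.90-fold in clone 2 against HMC-1.2 (log2 0.93, SE 0.09, edgeR adjusted p = 2.7e-07) and was 1.61-fold higher in clone 2 than in clone 1 (edgeR adjusted p = 7.3e-06), although glmTreat did not call the latter. In HMC-1.1 it was 1.29-fold higher than in HMC-1.2 (edgeR adjusted p = 0.0041), under the fold threshold. For clone 1 the direction depended on the scale, with 0.24 from counts (edgeR adjusted p = 0.047) and -0.01 on log2(FPKM + 1). Its neighbors *CEP44* (157 kb, 0.14, 0.06 and 0.08) and *GPM6A* (1110 kb, -0.08, 0.17 and -0.53) were not called against HMC-1.2, and *GPM6A* was called higher in clone 2 than in HMC-1.1 (0.70, edgeR adjusted p = 0.049).

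Clone 1 and HMC-1.1, which share V560G or D816V with HMC-1.2 but not with each other, were compared next. None of the 8 members was called by edgeR or by DESeq2, where edgeR called 1.01% of all genes tested, and 4 members had an unadjusted p under 0.05. In clone 2 against HMC-1.1, 2 members were called, *HPGDS* and *LTC4S*, both lower, beside 8.19% of all genes. *HPGD* lay 1.47-fold above HMC-1.1 in clone 2 (log2 0.56, SE 0.09, edgeR adjusted p = 0.00011) and passed the fold threshold without replicate 1 of HMC-1.1 (0.60) or without replicate 3 of clone 2 (0.63). Between the clones 4 members were called, with *ALOX5AP*, *LTC4S* and *HPGDS* higher and *HPGD* lower in clone 1, beside 12.6% of all genes.

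The rest of the pathway was followed through 54 further genes for release, conversion, conjugation, transport and reception of eicosanoids, of which 36 were tested. Of these, 4 (*GGT5*, *DPEP1*, *PTGER3* and *CYSLTR2*) passed the filter on low counts only through the group where they were high. Against HMC-1.2, 12 were called in clone 1 (33.3% of those tested, beside 20.0% of all genes tested), 13 in clone 2 (36.1% beside 16.5%) and 12 for HMC-1.1 (33.3% beside 17.6%). Leaving out those 4 genes, 9 of 32 were called in each comparison (28.1%), 6 higher and 3 lower in clone 1 and 7 higher and 2 lower in clone 2 and in HMC-1.1. Over all 36, DESeq2 called 11, 14 and 11 in clone 1, clone 2 and HMC-1.1 against HMC-1.2, beside 19.2%, 15.8% and 16.6% of all genes. By edgeR, no gene of this list was called for clone 1 against HMC-1.1 (13 at an unadjusted p under 0.05, none by DESeq2), where 1.01% of all genes were called, and nothing is read from that count. For clone 2 against HMC-1.1, 5 were called (13.9% beside 8.19%), and in the comparison of the clones 6 (16.7% beside 12.6%). The median log2 fold change of the list against HMC-1.2 was 0.12 for clone 1, 0.23 for clone 2 and 0.03 for HMC-1.1.

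Of 6 other phospholipases of arachidonate release that were tested, 3 were called higher in clone 1 and the same 3 in clone 2. In each of these comparisons alone, 11.8% and 7.98% of all genes were called higher, and the share called higher in both was not computed. *PLA2G2A*, a secreted phospholipase A2, had a mean of 19.9 ± 1.15 FPKM (SD, n = 3) in the parental HMC-1.2, 64.6 ± 0.998 in clone 1, 208 ± 5.28 in clone 2 and 71.2 ± 3.75 for HMC-1.1. Its log2 fold change against HMC-1.2 was 1.64 in clone 1, 3.35 in clone 2 and 1.78 for HMC-1.1, and clone 2 was above clone 1 (log2 -1.70 for clone 1 against clone 2, SE 0.04, edgeR adjusted p = 1.4e-14). *PLA2G6*, a calcium-independent phospholipase A2, had a mean of 27.3 ± 3.84 FPKM in the parental cells and rose to 74.0 ± 2.38 in clone 1 and 47.2 ± 5.16 in clone 2. *PLA2G5*, another secreted enzyme, had a low level of 0.63 ± 0.26 FPKM in HMC-1.2 and rose by 0.96 and 1.31 on the log2 scale in clones 1 and 2. *PLA2G4A* and these 3 genes were thus higher in both clones and in HMC-1.1, although the call of *PLA2G4A* in clone 1 stood at the fold threshold. In clones 1 and 2, *PLA2G15* (-0.26 and -0.16), *PLA2G4C* (-0.23 and -0.44) and *PLA2G4B* (0.33 and 0.16) were not called. Of the enzymes that return arachidonic acid to phospholipids, *MBOAT7* was called lower in clone 1 (-0.68) and *ACSL4* lower in clone 2 (-0.64).

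Among the other prostanoid synthases, *PTGDS*, the lipocalin-type prostaglandin D synthase, was the 1 of 5 tested that was called, and it was called in each comparison with HMC-1.2. Since 20.0%, 16.5% and 17.6% of all genes were called in these comparisons, nothing is read from that count. *PTGDS* had 16.4 ± 2.36 FPKM in HMC-1.2, 39.9 ± 2.67 in clone 1, 26.1 ± 0.60 in clone 2 and 31.3 ± 0.593 for HMC-1.1, with log2 fold changes of 1.23, 0.62 and 0.91 against HMC-1.2. The call in clone 2 stood near the fold threshold (1.53-fold). In clone 2, *PTGDS* was thus higher and *HPGDS* lower than in HMC-1.2. *ALOX15*, another lipoxygenase, had 1.29 ± 0.0721 FPKM in HMC-1.2 and was not called in any comparison with it. *COTL1*, the other gene tested of the list of lipoxygenases and helpers, had means of 749 FPKM in HMC-1.2 and 1150 to 1190 elsewhere. It was called higher in clone 2 (0.62) and HMC-1.1 (0.63), near the fold threshold (1.54-fold in each), and not in clone 1 (0.56). *MGST2* and *MGST3*, glutathione transferases that can also make leukotriene C4, had 103 ± 3.94 and 54.8 ± 2.77 FPKM in HMC-1.2 and differed by at most 0.44 on the log2 scale from it, without a call.

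**Figure D4:**
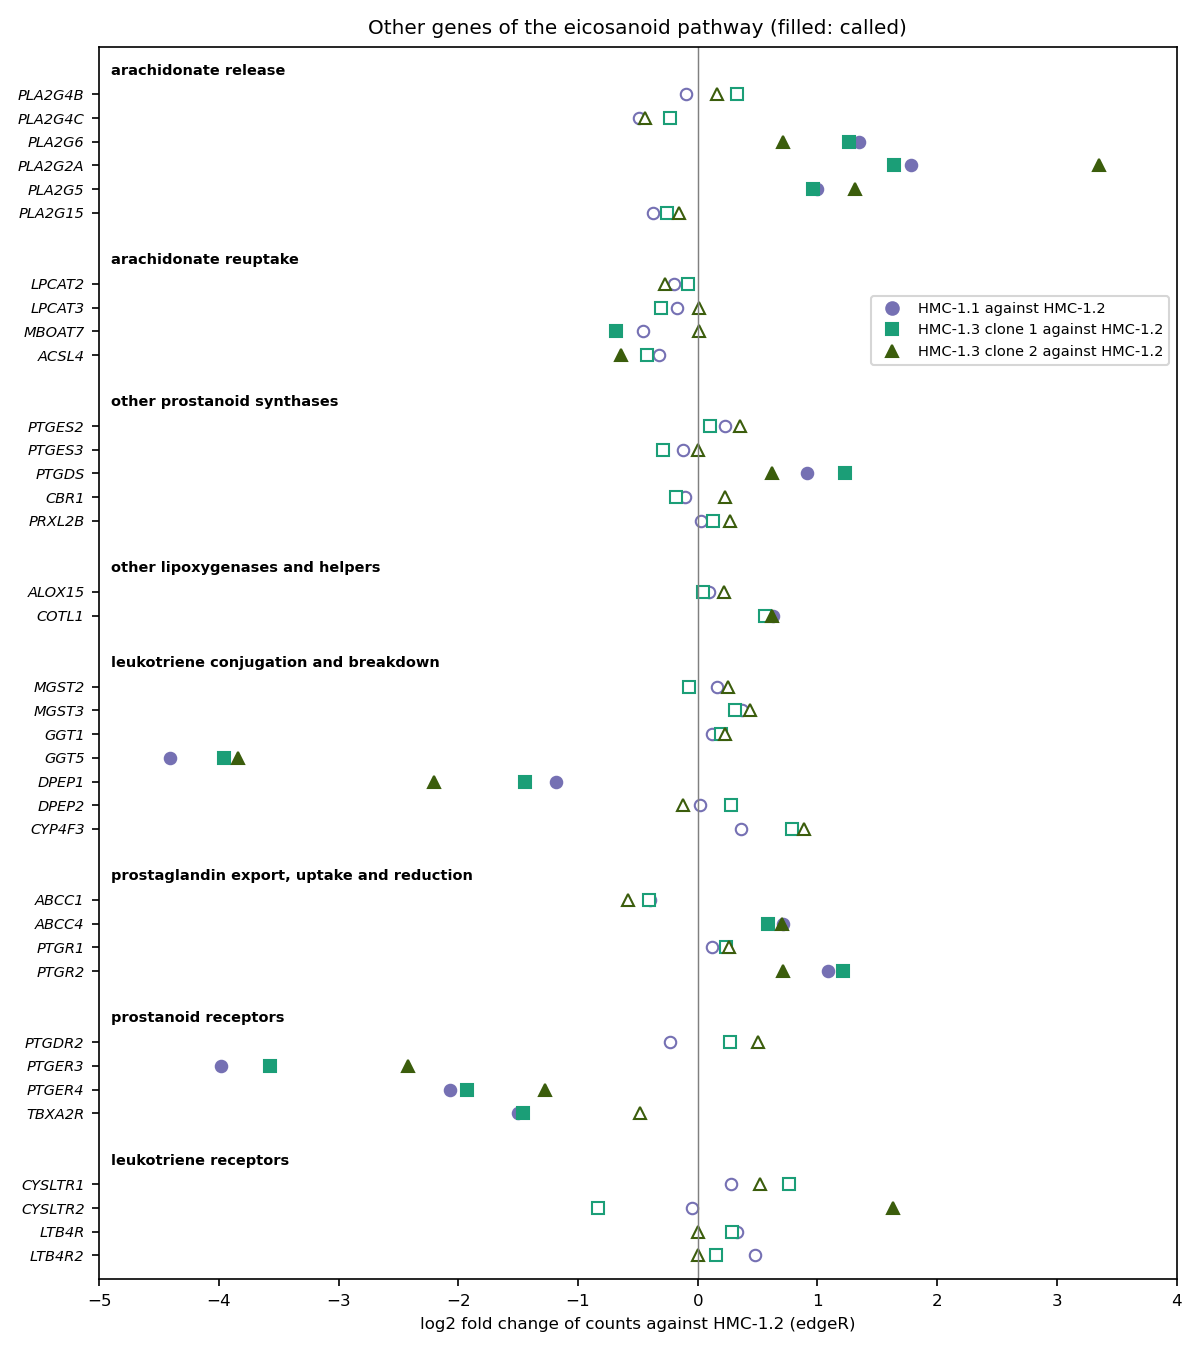
Log2 fold change of counts (x axis, edgeR) of HMC-1.1 and each clone relative to HMC-1.2 for the 36 other pathway genes tested, grouped by role, with filled symbols for called genes. *PLA2G2A* reaches 3.35 in clone 2, and *GGT5* lies between -4.41 and -3.84 in the 3 comparisons. *GGT5*, *DPEP1* and *PTGER3* passed the filter on low counts only through HMC-1.2, and *CYSLTR2* only through clone 2. The values of these genes are a description.

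Of 7 genes of leukotriene conjugation and breakdown, 2 were called lower, beside 16.5% to 20.0% of all genes called, and nothing is read from that count. Both encode enzymes that trim leukotriene C4 to D4 and E4, and both passed the filter on low counts only through HMC-1.2, so they had to be high there and their values are a description. *GGT5*, a gamma-glutamyl transferase that acts on leukotriene C4, had 53.3 to 59.5 counts in HMC-1.2, 2.01 to 6.02 in clone 1, 4.04 to 5.01 in clone 2 and 2.00 to 4.02 for HMC-1.1. The fitted log2 fold change was -3.96 (SE 0.36) in clone 1, -3.84 (SE 0.35) in clone 2 and -4.41 (SE 0.38) for HMC-1.1. *DPEP1*, a dipeptidase that converts leukotriene D4, had 14 to 20 counts in HMC-1.2 and 4 to 10 in the other groups and had fitted log2 fold changes of -1.44 and -2.20 for clones 1 and 2. The other 5 genes of conjugation and breakdown that were tested were not called. Among them, *GGT1* and *DPEP2* had means of 50.1 and 8.57 FPKM in HMC-1.2, where *GGT5* had 1.23 and *DPEP1* 0.707. *ABCC4*, an exporter of prostaglandins, and *PTGR2*, a prostaglandin reductase, were called higher in both clones, *ABCC4* by 0.59 and 0.70 and *PTGR2* by 1.21 and 0.71. Both were also called higher in HMC-1.1, by 0.71 and 1.09. The call of *ABCC4* in clone 1 stood at the fold threshold (1.51-fold). *ABCC1*, of the same list of export and reduction genes, was lower by 0.41 in clone 1 and 0.58 in clone 2, without a call.

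Receptors for the products were few and mostly low. *PTGDR*, a receptor of prostaglandin D2, had 0 counts in all libraries, and *PTGDR2*, the other receptor, had 5 to 16 and was not called. *TBXA2R*, the thromboxane receptor, had 13.0 ± 0.955 FPKM in HMC-1.2, 5.07 ± 0.31 in clone 1, 9.60 ± 0.344 in clone 2 and 4.68 ± 0.428 for HMC-1.1, and it was called lower in clone 1 (-1.46) and in HMC-1.1 (-1.50). In clone 2 it was 0.48 lower on the log2 scale, under the fold threshold, and the difference between the clones was called (-0.98, SE 0.08, edgeR adjusted p = 2.5e-08). *PTGER4*, a receptor of prostaglandin E2, fell by 1.93 in clone 1 and by 1.28 in clone 2 on the log2 scale, and stood at -2.07 in HMC-1.1, also called. *PTGER3*, which passed the filter on low counts only through HMC-1.2, had 13 to 16 counts there and at most 4 in the other groups. *CYSLTR2*, a receptor of cysteinyl leukotrienes, had 21 to 34 counts in clone 2 and 3 to 14 elsewhere and a fitted log2 fold change of 1.63 (SE 0.42) in clone 2. It passed the filter only through clone 2, so this value is a description too. *CYSLTR1*, *LTB4R* and *LTB4R2* were not called against HMC-1.2.

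The genes most like the 3 members with the widest range of group means were sought by Pearson's r of log2 CPM over the 12 libraries, among 13115 genes. These values describe the same libraries and share their depth, and the 4 groups dominate them. For *LTC4S*, with group means ranging over 4.18 on the log2 scale, they were *TRDC* (r = 0.989), *EPHB6* (0.989) and *KBTBD11* (0.988). For *ALOX5AP*, with a range of 3.52, they were *RASGRP2* (0.997), *CCL3L3* (0.996), whose reads can be shared with near-identical copies, and *CD55* (0.996). For *HPGDS*, with a range of 1.52, they were *SPIRE1* (0.981), *C6orf223* (0.971) and *LMNA* (0.969). The range was 1.42 for *TBXAS1*, 1.01 for *PLA2G4A* and 0.92 for *HPGD*, and only 0.32 for *PTGS1* and 0.23 for *LTA4H*.

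*PLA2G4A* and *PTGS2* are neighbors on chromosome 1, with 148 kb between them (186828949 to 186988981 on the plus strand and 186671791 to 186680922 on the minus strand, GRCh38). *LINC01036*, the nearest tested gene 81.7 kb after *PLA2G4A*, was called higher with it against HMC-1.2, at 1.26 in clone 1, 1.35 in clone 2 and 1.05 for HMC-1.1, while *ODR4*, 408 kb before it, was not called. *HPGDS* (chromosome 4, 94298535 to 94342876, minus strand) lies 7.24 kb from *SMARCAD1*, which was not called at -0.15 in clone 1 and -0.18 in clone 2 against HMC-1.2. *PDLIM5*, 109 kb away on the other side, was called higher in clone 2 (0.68, edgeR adjusted p = 2e-10), where *HPGDS* was lower, and not in clone 1 (0.22) or HMC-1.1 (0.34). Genes on the opposite strand overlap *ALOX5*, *PTGS2*, *LTA4H*, *HPGDS* and *HPGD* in Gencode 44, and none overlaps *ALOX5AP*, *LTC4S* or *PLA2G4A*.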

How the data were processed

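RNA-seq of 12 libraries was analyzed. Per the paper's methods, trimming was done with Cutadapt 2.10, alignment to hg38 with STAR 2.5.3 and quantification per gene with RSEM 1.3.0. Deposited expected counts are RSEM estimates without normalization, and 7.39% of the values are not whole (tolerance 0.001). The deposited FPKM values were normalized by the authors for length and depth. All 12 count columns matched their own FPKM column best, and 99.0% of identifiers were found in Gencode 44, from which positions were taken (GRCh38).

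Expected counts were rounded and tested with edgeR 4.0.16 (R 4.3.3) by the quasi-likelihood test with TMM (factors 0.974 to 1.02) after filterByExpr, in 1 model of the 4 groups, with Benjamini-Hochberg adjustment over 15944 genes. Called genes had an adjusted p under 0.05 and a fold over 1.5. DESeq2 1.42.0, limma 3.58.1 on log2(FPKM + pseudocount) and the settings in the closing section were alternatives. The scripts were tested on simulated data. Chi-square tests found no pair of libraries identical within sampling noise.

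All members were named. Other pathway genes were named when called in both clones against HMC-1.2 in the same direction or as receptors for products of called members, as were the 3 most similar genes for 3 members and the nearest tested genes on each side. *MBOAT7*, *ACSL4*, *ALOX15*, *COTL1*, *MGST2*, *MGST3*, *GGT1*, *DPEP2*, *ABCC1*, *PLA2G15*, *PLA2G4C* and *PLA2G4B* were named after their values were seen. The members and lists were chosen with earlier results of these data known. The symbol *PRXL2B* was matched as FAM213B. RefSeq start sites were found for 9 of 10 members, and *ALOX5* was the other. Reads were not used here.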

Additional observations from a re-analysis of the deposited data

Results flagged for a closer look

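The effect against HMC-1.2 differed between the clones for 4 members by edgeR's test of clone 1 against clone 2, which is the test of the difference itself since both effects share the HMC-1.2 libraries. *HPGDS* differed by 1.52 on the log2 scale, and every clone 2 library was below every clone 1 library. *LTC4S* differed by 1.62 and *ALOX5AP* by 0.98, with clone 2 lower in 3 of 3 libraries. *HPGD* differed by -0.69, with clone 2 higher in 3 of 3 libraries. The summed eosinophil and basophil markers were 63.7 to 70.1 CPM in clone 1 and 30.5 to 34.8 CPM in clone 2, and their part in these differences was not tested. Of these markers *PRG2* differed between the clones (log2 1.78, called), while *CLC* (0.16) was not called. *EPX* (0.15, SE 0.52) and *RNASE2* (-0.20, SE 1.08) were not called either, but had at most 15 and 3 counts in the clones. Nothing is read from their missing calls.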

How the results depend on the processing

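Under RLE normalization, DESeq2, other filters on low counts, a fit of only the groups compared, a covariate for the 3 resent libraries and leaving out each library, *ALOX5AP* and *LTC4S* stayed called in each comparison with HMC-1.2, and *PLA2G4A* in clone 1 was lost without HMC-1.2 replicate 2 or clone 1 replicate 2. Of the values under alternatives, 1035 kept direction and side of the threshold, 10 lost the call, 3 gained it and 8 changed sign. Calls in clone 1 against HMC-1.2 numbered 2 with glmTreat (a test against 1.5-fold) and 2 with limma on log2(FPKM + 1), instead of 4, and both lost *PLA2G4A* (0.60 and 0.58) and *TBXAS1*. Clone 1 against HMC-1.1 had 1 (*TBXAS1*) with limma on log2(FPKM + 0.1) instead of 0, and clone 2 against HMC-1.1 had 1 (*HPGDS*) with glmTreat instead of 2. With glmTreat, 12.1%, 10.1% and 10.1% of all genes were called in clone 1, clone 2 and HMC-1.1 against HMC-1.2, and 3.46% in clone 2 against HMC-1.1. With limma on log2(FPKM + 1), 11.9% were called in clone 1 against HMC-1.2. On log2(FPKM + 0.1), 0.753% were called in clone 1 against HMC-1.1. The cause was not tested.

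The sign changed for *HPGD* in clone 1 against HMC-1.2 with limma (-0.01 and -0.02). In clone 1 against HMC-1.1 single libraries turned the sign of *LTA4H* (range -0.01 to 0.04), *HPGDS* (-0.16 to 0.11) and *LTC4S* (-0.01 to 0.36), and none of these was called. Leaving out a library gave 3 to 4 calls in clone 1 against HMC-1.2 and 2 to 3 in clone 2 against HMC-1.1.

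The replicate numbers were not shown to pair the libraries. The correlations of deviations ran from -0.244 to 0.437 over 18 pairs with the same number, 7 of them over 0.1, and from -0.411 to 0.392 over 36 other pairs, and 5 of 12 libraries correlated best with their own number. With a replicate block, the calls numbered 4, 6 and 4 in clone 1, clone 2 and HMC-1.1 against HMC-1.2, 0 and 2 in clones 1 and 2 against HMC-1.1, and 4 between the clones, beside 20.0%, 16.5%, 17.6%, 1.03%, 8.10% and 12.5% of all genes. Depth limits *LTC4S* in clone 2 (7 to 16 counts), *ALOX5* and *PTGS2*.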
